A study of Mus musculus with 6 samples.

Results

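The thermosensitive TRP channels are 10 genes of the transient receptor potential family whose channels open or shut with temperature: Trpv1, Trpv2, Trpv3, Trpv4, Trpa1, Trpm2, Trpm3, Trpm7, Trpm8 and Trpc5. They were taken by symbol from the 45703 genes of the count table, and all 10 were found. RNA was sequenced from 6 primary cultures of mouse dorsal root ganglia (DRG), where the cell bodies of sensory neurons lie among satellite glia and Schwann cells. The donors were wild type C57BL/6 mice of 4 to 6 weeks. Ganglia were digested with Liberase and plated on poly-L-lysine, and the cells were grown for 7 days. The medium held fetal calf serum (10%) and 10 ng/ml of the growth factors EGF and FGF, and each sample pooled the RNA of 2 dishes. All 6 samples formed a single group, with no fresh ganglion, other time point or other treatment to set them against. The cultures are therefore compared with each other, and the genes with each other within a library.

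TRP channels are tetramers that let cations, often calcium, into the cell. In pain-sensing DRG neurons, Trpv1 encodes the channel opened by noxious heat, protons and capsaicin, Trpa1 the receptor of electrophilic irritants such as mustard oil, and Trpm8, found in a small class of neurons, the receptor of cold and menthol. Trpm3, the channel for heat and the steroid pregnenolone sulfate, and Trpm2, gated by ADP-ribose and oxidative stress, have also been tied to warmth and heat sensing. Several members are also known outside neurons, including Trpv3 in keratinocytes, Trpv4 in epithelia, endothelium and glia, Trpv2 and Trpm2 in macrophages, and Trpm7 in nearly all cells.

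The libraries held between 20070639 and 22968642 counts. Most markers of the expected cells were present. CPM is the count scaled to a common library total. All 12 genes of a neuron list and all 6 of a glial lineage list reached 1 CPM in every library. So did 4 of 5 satellite glia markers and 8 of 12 sensory subtype genes, beside 30.4% of all genes in the table. The remaining satellite glia marker, Slc1a3, was at 0.392, 0.729 and 0.861 CPM in replicates 1, 2 and 6. Replicates 1 and 5 stood apart in their other cells. The summed level of 6 fibroblast markers was 3338 CPM in replicate 1, 13967 CPM in replicate 5 and 4429 to 7446 CPM in the others. For 8 macrophage markers the sums of replicates 1 to 6 were 16.9, 30.1, 118, 136, 156 and 40.5 CPM. The neuron list was lowest in replicate 5, at 1098 CPM, and highest in replicate 3, at 2410 CPM. Endothelial markers summed to between 6.44 and 102 CPM and mural markers to between 54.9 and 1045 CPM, while the 4 lymphocyte markers had at most 3 counts in every library. In bulk RNA, fewer cells of a type and less RNA per cell cannot be told apart. The labels call the samples biological replicates but do not say which mice went into each, so spread between them may be technical in part.

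The sequence before the gene start is shown for Trpm7 (the most abundant channel), Trpv1 (the nociceptor heat channel), Trpv2 and the cold channel Trpm8. These 4 sequences were chosen because they span the range of CG content found among the members. Each is the 250 bases before a RefSeq transcript start on GRCm38.p6, written 5′ to 3′ on the strand of the gene, with every CG dinucleotide in capitals. The windows are chr11:73233899-73234148 on the plus strand for Trpv1, chr11:62574236-62574485 on the plus strand for Trpv2, chr1:88306485-88306734 on the plus strand for Trpm8 and chr2:126876262-126876511 on the minus strand for Trpm7. RefSeq promoter entries were matched for 9 of the 10 members. Trpa1 was not matched.
Trpv1: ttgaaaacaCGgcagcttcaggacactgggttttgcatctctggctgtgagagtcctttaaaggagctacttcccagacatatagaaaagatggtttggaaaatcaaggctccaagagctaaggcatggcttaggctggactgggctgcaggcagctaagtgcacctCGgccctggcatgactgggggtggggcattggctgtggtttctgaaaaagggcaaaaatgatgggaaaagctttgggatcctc
Trpv2: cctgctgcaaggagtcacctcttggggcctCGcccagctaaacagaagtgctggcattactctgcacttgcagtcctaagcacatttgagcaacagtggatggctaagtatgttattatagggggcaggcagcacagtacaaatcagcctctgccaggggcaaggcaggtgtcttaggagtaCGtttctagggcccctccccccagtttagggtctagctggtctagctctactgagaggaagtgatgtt
Trpm8: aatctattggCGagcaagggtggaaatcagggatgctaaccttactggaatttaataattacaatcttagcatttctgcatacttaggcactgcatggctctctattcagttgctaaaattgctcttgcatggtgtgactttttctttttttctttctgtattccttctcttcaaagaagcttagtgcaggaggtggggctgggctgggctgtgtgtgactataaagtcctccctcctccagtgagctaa
Trpm7: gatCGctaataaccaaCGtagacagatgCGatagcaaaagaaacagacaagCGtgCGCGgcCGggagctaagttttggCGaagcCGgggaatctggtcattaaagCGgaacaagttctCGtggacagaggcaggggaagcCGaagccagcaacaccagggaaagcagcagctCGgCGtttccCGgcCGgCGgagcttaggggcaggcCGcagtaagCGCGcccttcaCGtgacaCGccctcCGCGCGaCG

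CG dinucleotides, which read the same on both strands, numbered 2 before Trpv1, 2 before Trpv2, 1 before Trpm8 and 26 before Trpm7. Over 32851 promoter windows of the same length, 92.1% held at least 1 CG and the median was 6. As few as 2 were found in 29.0% of windows, and as many as 26 in 9.59%. Trpv4 had 22, Trpm2 10, Trpc5 7 and Trpv3 3. Trpm3 had 17 and 9 at its pair of listed starts, and the further starts of Trpv2 had 2 and 5. The counts describe these windows, and no factor or methylation was measured.

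Levels of the members spanned from 21.9 ± 1.46 CPM per kb for Trpm7 to 0.0101 ± 0.00966 CPM per kb for Trpc5 (SD, n = 6). CPM per kb is the CPM divided by the combined exon length of the gene in kilobases and is the scale used here to compare genes. In this order, Trpm7 was followed by Trpv1 at 8.99 ± 3.45, Trpv2 at 5.14 ± 1.23, Trpa1 at 2.44 ± 1.16, Trpm3 at 2.33 ± 0.802 and Trpv4 at 1.74 ± 0.237 CPM per kb (SD, n = 6). Trpm8 at 0.293 ± 0.277, Trpv3 at 0.286 ± 0.136 and Trpm2 at 0.147 ± 0.0510 CPM per kb came next (SD, n = 6). At least 1 CPM in every library was reached by 6 of the 10 members, namely Trpv1, Trpv2, Trpv4, Trpa1, Trpm3 and Trpm7, beside 30.4% of all genes in the table. Trpm7 made up 51.3% ± 7.05 of the summed level per kb of the 10 members (SD, n = 6), from 42.5% in replicate 3 to 59.6% in replicate 2. Among the 14998 genes with enough counts for testing, 79.1% had a lower mean level per kb than Trpm7, 56.3% a lower one than Trpv1 and 0.827% a lower one than Trpm2.

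**Figure D1:**
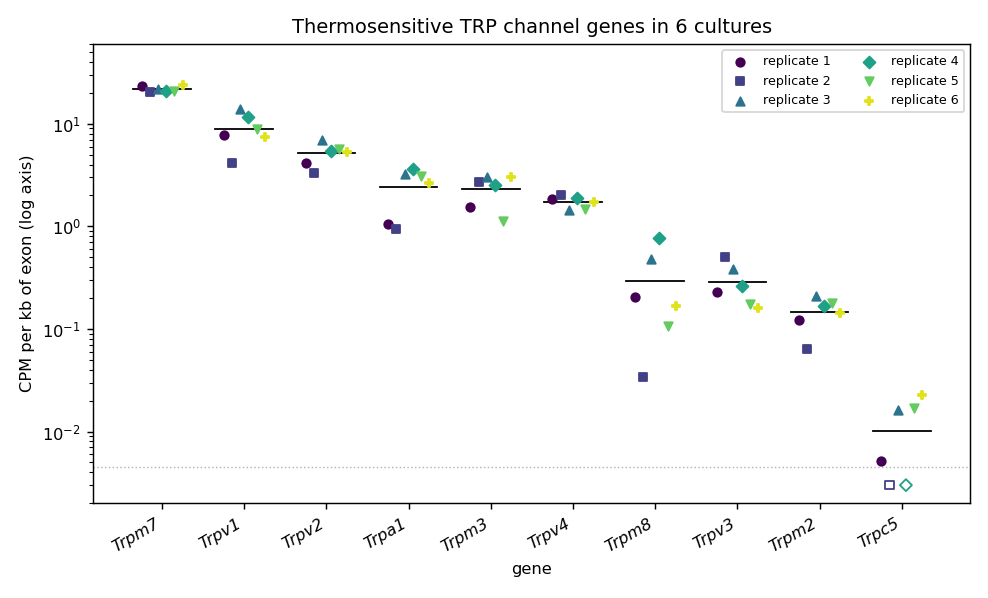
Levels of the 10 channel genes in CPM per kb of exon on a log axis. Each symbol is 1 of the 6 replicate cultures, bars are means, and open symbols under the dotted line are libraries with 0 counts; Trpm7 was the highest in every culture and Trpc5 was at or near 0.

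All 45 pairs of members were compared within libraries on the scale log2(CPM per kb + 0.1), which understates differences of low genes. The signs of the 6 differences of a pair were flipped in every way (an exact permutation test, two-sided), which with 6 libraries cannot give a p below 0.0312. One gene was the higher in all 6 libraries for 39 pairs, and these 39 passed (exact permutation, p = 0.0312 each, adjusted p = 0.0361 over the 45). Passing thus meant only that a pair kept its order in all 6 libraries. How many pairs of other genes would pass was not computed, so the count of 39 is not particular to these channels. Trpm7 exceeded Trpv1 by 1.37 ± 0.592 and Trpv1 exceeded Trpv2 by 0.73 ± 0.303, both in 6 of 6 libraries (log2, SD, n = 6). Trpv2 exceeded Trpa1 by 1.18 ± 0.514 in 6 of 6 libraries (log2, SD, n = 6). Trpa1, Trpm3 and Trpv4 could not be put in an order: Trpa1 was above Trpm3 in 3 of 6 libraries (mean difference -0.03 ± 0.956 on the log2 scale, SD, n = 6; exact permutation p = 0.906, adjusted p = 0.906), above Trpv4 in 4, and Trpm3 was above Trpv4 in 4. The same held among Trpm8, Trpv3 and Trpm2, where Trpv3 lay above Trpm2 in 5 of 6 libraries by 0.60 ± 0.686 (log2, SD, n = 6; exact permutation p = 0.0625, adjusted p = 0.0703).

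The place of Trpm3 depended on the length used. Its combined exons cover 21853 bases, whereas its longest coding sequence in GENCODE M21 has 5193 bases. Per kb of coding sequence, an alternative chosen after the data were seen, Trpm3 stood at 9.82 ± 3.38 CPM, above Trpv2 at 7.86 ± 1.89 and below Trpv1 at 12.8 ± 4.92 (SD, n = 6). On that scale Trpv2 minus Trpm3 was -0.27 on the log2 scale, a change of direction, and the excess of Trpv1 over Trpm3, 0.37 on the log2 scale, did not pass.

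Trpv1 (chromosome 11, 73234149 to 73261322, plus strand, GRCm38.p6) was counted at 27.7, 14.9, 50.3, 41.7, 31.9 and 26.8 CPM in replicates 1 to 6. It was highest in replicate 3 and lowest in replicate 2, a 3.38-fold range. Its counts lay between 327.25 and 1090, and no other gene of the table overlapped it. Trpv2 (chromosome 11, 62574486 to 62600305, plus strand), a channel that opens to strong heat in transfected cells but whose loss leaves heat sensing in mice largely intact, gave 14.5, 11.5, 23.9, 19.0, 19.5 and 18.5 CPM. Its highest and lowest libraries were the same as those of Trpv1, over a 2.07-fold range.

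The other heat and warmth channels fell into a higher and a lower class. Trpm3 (chromosome 19, 22137797 to 22995410, plus strand) gave 34.1, 59.4, 66.7, 55.6, 24.6 and 65.8 CPM. It was low in replicates 1 and 5 and between 55.6 and 66.7 CPM in the other 4. The gene spans 858 kb and holds Mir204 and Nsa2-ps1. Nsa2-ps1, a pseudogene on the same strand, averaged 570 counts with fractions in all 6 libraries. Trpm3 itself had a fractional count only in replicate 1, at 783.67. How reads were shared between the overlapping genes was not tested. Trpm2 (chromosome 10, 77907722 to 77969909, minus strand) was counted 12 to 39.33 times per library, at 1.04, 0.546, 1.82, 1.44, 1.53 and 1.24 CPM. The exact 95% binomial interval, which covers counting error only, ran from 0.282 to 0.955 CPM in replicate 2 and from 1.28 to 2.46 CPM in replicate 3, and the intervals of replicates 3, 4 and 5 all lay above that of replicate 2. The interval of replicate 3 overlapped those of replicates 1, 4, 5 and 6.

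Of the warmth channels, Trpv4 (chromosome 5, 114622152 to 114658435, minus strand), which also answers to osmotic swelling, was steady at 6.07, 6.69, 4.75, 6.28, 4.87 and 5.67 CPM. Its range was 1.41-fold, with the highest value in replicate 2, where Trpv1, Trpv2, Trpa1 and Trpm2 were lowest. Trpv3 (chromosome 11, 73267489 to 73300368, plus strand) begins 6166 bases after the end of Trpv1, on the same strand and with 0 genes of the table between them. It gave 1.31, 2.91, 2.22, 1.49, 1.00 and 0.908 CPM, and its highest library was replicate 2, the lowest of its neighbour. Markers of keratinocytes, the cells best known for Trpv3, were nearly absent: Krt5 had 0 counts in every library, Krt14 at most 1 and Krt1 at most 4, while Krt10 was at 1.84 ± 0.252 CPM (SD, n = 6). The summed level of these 4 genes lay between 1.71 and 2.26 CPM.

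Among cold and irritant channels, Trpa1 (chromosome 1, 14872644 to 14918862, minus strand) gave 4.53 and 4.01 CPM in replicates 1 and 2 and 13.8, 15.5, 13.3 and 11.2 CPM in replicates 3 to 6, a 3.87-fold range. Replicates 1 and 2 were thus low and the other 4 high, with no value between 4.53 and 11.2 CPM. Trpm8 (chromosome 1, 88306735 to 88388853, plus strand) was counted 19, 3, 42, 62, 9 and 14 times, or 0.827, 0.137, 1.94, 3.09, 0.430 and 0.669 CPM. The exact 95% binomial intervals were 2.37 to 3.96 CPM in replicate 4, 1.40 to 2.62 CPM in replicate 3 and 0.0282 to 0.399 CPM in replicate 2, and that of replicate 1 began at 0.498 CPM, so replicate 2 lay below replicates 1, 3 and 4 beyond counting error. Trpc5 (chromosome X, 144377327 to 144688180, minus strand), tied to cold sensing in skin nerve endings and teeth, had 1, 0, 3, 0, 3 and 4 counts. It exceeded 3 counts only in replicate 6, and the limit of 3 counts corresponds to 0.131 to 0.149 CPM over the libraries. Its transcript was hardly detectable at this depth.

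Trpm7 (chromosome 2, 126791558 to 126876261, minus strand), which joins a magnesium and calcium channel to a kinase domain, was both the highest and the steadiest member. It gave 186, 160.0, 173, 166, 163 and 186 CPM, a 1.16-fold range. Its coefficient of variation (the SD as a percentage of the mean) was 6.66%, against a median of 12.1% over the 14998 tested genes, 13.6% for Trpv4, 38.4% for Trpv1 and 47.6% for Trpa1.

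**Figure D2:**
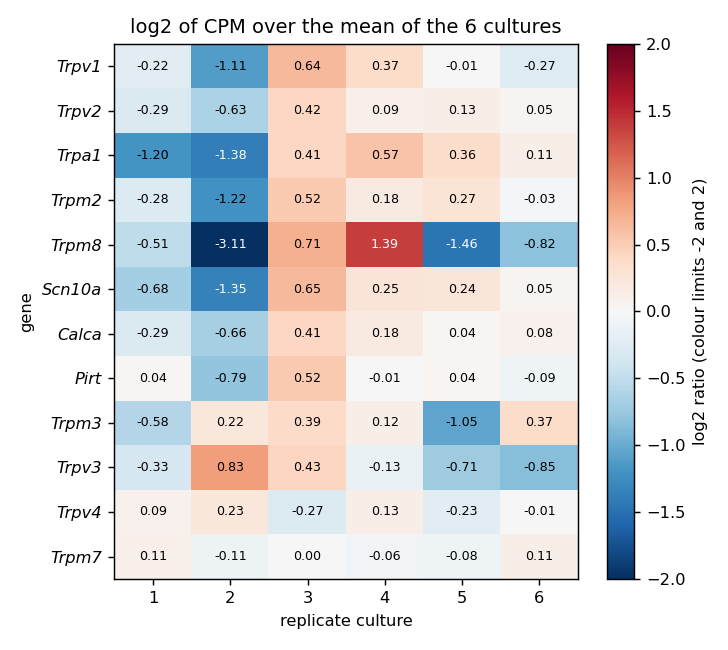
log2 of the CPM of each gene in each culture over its mean across the 6 cultures, for 9 channels and the nociceptor genes Scn10a, Calca and Pirt. Trpv1, Trpv2, Trpa1, Trpm2 and Trpm8 were lowest in replicate 2, Trpm3 was lowest in replicate 5, and Trpm7 stayed close to 0 throughout.

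Variation between the cultures was then tested over all genes. For each gene the 6 counts were compared by chi-square with those that TMM-scaled library sizes would give, with Benjamini-Hochberg adjustment over 14998 genes. This called all 8 members that passed the low-count filter, beside 76.3% of all genes tested. Trpm8 and Trpc5 did not pass the filter, which asked for about 10 counts in every library. Without it 9 of 10 members were called, beside 50.2% of genes, and Trpc5 was not. Trpm2 (adjusted p = 0.0143) and Trpv4 (adjusted p = 0.0232) were closest to the threshold of 0.05. Trpv4 was not called with library size in place of TMM scaling, nor without replicate 2, 3 or 5, and Trpm2 was not called without replicate 2.

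Against genes of like abundance, the members separated more. The ratio of a gene's quasi-dispersion, edgeR's measure of spread beyond the fitted counts, to the trend at its abundance was 22.9 for Trpm3, 18.2 for Trpv1 and 15.6 for Trpa1. It was 4.92 for Trpv3, 4.44 for Trpv2 and 2.78 for Trpm2, and 0.854 for Trpv4 and 0.716 for Trpm7, with a median of 1.12 over all tested genes. With edgeR's quasi-likelihood fit, 0 of 8 members had an adjusted p under 0.05, beside 0 of 14998 genes. At an unadjusted p under 0.05 there were 3 members, Trpm3 (0.0238), Trpv1 (0.0314) and Trpa1 (0.0378), beside 5.39% of genes. DESeq2 marked Trpm3 and Trpv1 as dispersion outliers, beside 3.41% of genes. The prior of the edgeR fit had 2.49 degrees of freedom, and a count of 0 does not show that the members varied alike.

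**Figure D3:**
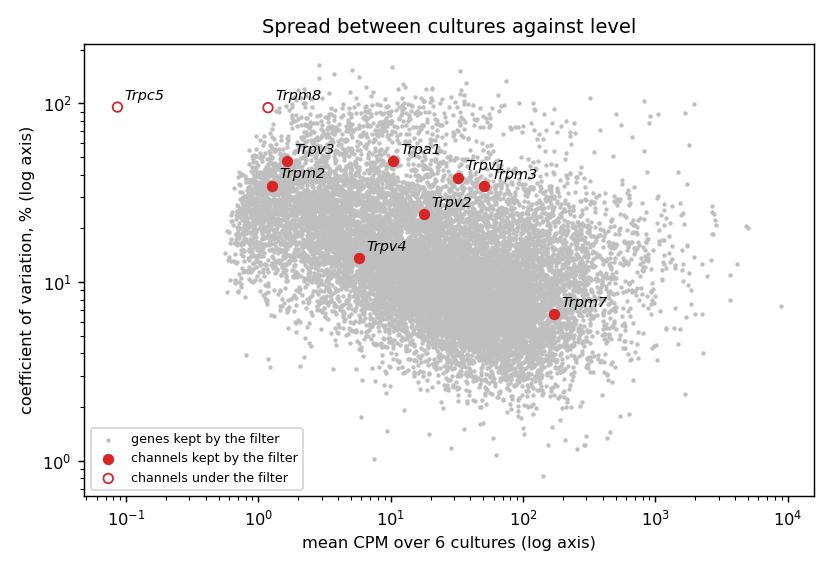
Coefficient of variation over the 6 cultures against mean CPM, both on log axes, for the tested genes (grey) and the 10 channels (red; open circles for Trpm8 and Trpc5, which were under the low-count filter). Trpm7 at 6.66% sat in the lower part of the cloud, and Trpv1, Trpm3 and Trpa1 in the upper part for their level.

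Whether members rose and fell together from culture to culture was then examined, and no pair passed after adjustment. For 36 pairs of 9 members (without Trpc5), correlations of log2(TMM-scaled CPM + 0.1) were computed over the 6 libraries. Trpv2 and Trpm2 gave r = 0.97 and rho = 1.00 (exact permutation p = 0.00139, the smallest that 6 libraries can give, and 0.00278, adjusted 0.05 and 0.1), and r = 0.90 without replicates 1 and 2. Trpv1 with Trpm2 gave r = 0.94 and rho = 0.89 (exact permutation p = 0.00694 and 0.0333, adjusted 0.117 and 0.262), falling to 0.61 without replicates 2 and 3. For Trpv1 with Trpa1 r was 0.79 and rho 0.89 (exact permutation p = 0.0333 for each, adjusted 0.133 and 0.262), with 0.61 left without replicates 2 and 3. Other pairs fell further without 2 libraries, namely Trpv2 with Trpa1 (r from 0.91 to 0.16), Trpv1 with Trpv2 (0.91 to 0.43) and Trpa1 with Trpm2 (0.87 to 0.45). Between Trpv4 and Trpv2 the correlation was negative, with r = -0.84 and rho = -0.83 (exact permutation p = 0.0292 and 0.0583, adjusted 0.131 and 0.262), and -0.72 without replicates 1 and 2. In all, 9 of 36 pairs had an unadjusted exact permutation p under 0.05 for r and 4 of 36 for rho. For both measures 0 of 36 had an adjusted p under 0.05. The share among pairs of other genes was not computed. Trpv1 with Trpm8, among the 9 for r, includes a library (replicate 2) with 3 counts of Trpm8. Trpv4 with Trpm2, also among the 9, gave r = -0.82 and rho = -0.83 (exact permutation p = 0.0292 and 0.0583, adjusted 0.131 and 0.262). Without replicates 3 and 5 its r was -0.81. Trpv3, Trpm3 and Trpm7 were in none of the 9.

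Of the nociceptor genes, Scn10a, a sodium channel, gave 52.2, 32.7, 131, 99.5, 98.6 and 86.6 CPM, and Calca, the precursor of the peptide CGRP, 88.4, 68.2, 143, 122, 111 and 114 CPM. Both were highest in replicate 3 and lowest in replicate 2, as were Trpv1, Trpv2 and Trpm2. Other sensory genes had other extremes. P2rx3, an ATP receptor of sensory neurons, was highest in replicate 1 at 209 CPM and lowest in replicate 5 at 76.8 CPM, and the sodium channel gene Scn9a was lowest in replicate 5 at 38.7 CPM. Mrgprd peaked in replicate 5 at 1.19 CPM and Th in replicate 1 at 1.79 CPM. A relation of 8 members to a list of 12 sensory subtype genes was added after the data were seen. The list holds no TRP gene, but it does hold Scn10a and Calca, so it is not independent of the profiles just given, and 4 of its genes (Mrgprd, Th, Pvalb and Sst) did not reach 1 CPM in every library. With adjustment over all 40 relations to lists that were computed, 0 had an adjusted p under 0.05. Trpv1 gave r = 0.97 and rho = 0.94 (exact permutation p = 0.00278 and 0.0167, adjusted 0.0833 and 0.167), with r = 0.96 without replicates 2 and 3. Trpm2 gave r = 0.94 and rho = 0.94 (exact permutation p = 0.00417 and 0.0167, adjusted 0.0833 and 0.167), with r = 0.79 without those 2 libraries. Trpv2 gave r = 0.94 and rho = 0.94 (exact permutation p = 0.0125 and 0.0167, adjusted 0.139 and 0.167), but r = 0.64 without them.

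Trpa1 gave r = 0.75 and rho = 0.94 (exact permutation p = 0.0361 and 0.0167, adjusted 0.289 and 0.167), with r = 0.77 without replicates 2 and 3. The negative relation of Trpv4 (r = -0.79, rho = -0.66; exact permutation p = 0.0486 and 0.175, adjusted 0.324 and 0.412) rested on those libraries, since r was -0.02 without them. For Trpv3, Trpm7 and Trpm3 r was -0.21, -0.02 and 0.04 (rho = -0.03, -0.03 and 0.09; exact permutation p from 0.714 to 1.0). Without replicates 2 and 3, r was -0.88 for Trpm7 and 0.45 for Trpv3, so their values rested on those libraries. The SD over the cultures on the log2 scale was 0.583 for Trpv1, 0.344 for Trpv2 and 0.533 for Trpm2. After the neuron score was subtracted it was 0.503, 0.411 and 0.532, and after the sensory score 0.255, 0.123 and 0.239. For the other channels with a larger SD after the sensory score, it went from 0.619 to 0.774 for Trpv3, from 0.216 to 0.539 for Trpv4, from 0.591 to 0.675 for Trpm3 and from 0.0991 to 0.368 for Trpm7. It was lower for 4 of 9 members after the neuron score and for 5 of 9 after the sensory score. After the glial lineage score it was lower for Trpm3 (0.456), Trpv3 (0.535) and Trpv4 (0.209) and larger for the rest. After the macrophage score it was lower only for Trpa1 and Trpm8. For Trpa1 it went from 0.837 to 0.654 after the macrophage score and to 0.617 after the sensory score. For Trpm8 it went from 1.33 to 1.31 and to 1.07.

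**Figure D4:**
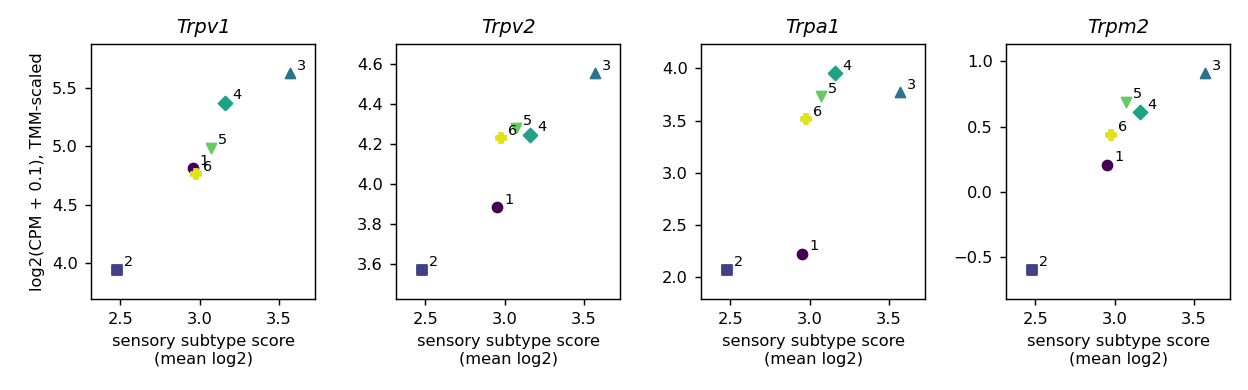
log2 level of Trpv1, Trpv2, Trpa1 and Trpm2 (TMM-scaled CPM + 0.1) against the mean log2 level of 12 sensory subtype genes, with the 6 cultures numbered. Replicate 2 lay lowest on both axes in each panel and replicate 3 had the highest sensory score; r was 0.97, 0.94, 0.75 and 0.94.

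The lists chosen for cell types as a whole gave no relation that passed. Of 32 relations of 8 members to neuron, glial lineage, fibroblast and macrophage lists, 0 had an adjusted exact permutation p under 0.05 and 1 had an unadjusted p under 0.05 for r. That was Trpa1 with the macrophage list, at r = 0.86 and rho = 0.77 (exact permutation p = 0.0139 and 0.103, adjusted over the 32 relations 0.444 and 0.365), with r = 0.84 without replicates 1 and 2 and 0.79 without replicates 1 and 5. Trpm2 and Trpv2, which macrophages also express, gave r = 0.69 and 0.74 with that list (rho = 0.77 for each; exact permutation p = 0.0931 and 0.101 for r and 0.103 for rho, adjusted 0.526 and 0.365). Without replicates 1 and 2, r with that list was 0.71 for Trpm2 and 0.35 for Trpv2. Macrophage markers were highest in replicates 3, 4 and 5. In these libraries, and in replicate 6, Trpa1, Trpv2 and Trpm2 were above their values in replicates 1 and 2. The part of macrophages in the levels of these channels was not tested.

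Trpm3 ran closest to the glial lineage list, at r = 0.71 and rho = 0.60 (exact permutation p = 0.0986 and 0.242, adjusted 0.526 and 0.552), but r was -0.07 without replicates 2 and 5, so it rested on those libraries. Its relation to the neuron list was r = 0.51 and rho = 0.49 (exact permutation p = 0.290 and 0.356, adjusted 0.526 and 0.632), with a change of sign, to -0.53, without replicates 3 and 5. Trpm7 and the fibroblast list gave r = -0.79 and rho = -0.77 (exact permutation p = 0.0611 and 0.103, adjusted 0.526 and 0.365), and r = -0.58 without replicates 1 and 5.

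A search of 14995 other tested genes (1 row per symbol) for the most similar profile over the 6 libraries gave r above 0.9 for 233 genes (1.55%) with Trpv1, so high values are common with 6 points and are given as a description only. The closest to Trpv1 were Immt, Smad1 and Aff3 (r = 0.997, 0.997 and 0.996), and the closest to Trpv2 were Masp1, Scn10a and Gm7658 (r = 0.996, 0.993 and 0.991). Trpa1 was closest to Xkr8, Sytl5 and Cnih1, and Trpm2 to Trarg1, Dgkh and Basp1 (r from 0.990 to 0.998 for these 6). Trpm3 was closest to Gsap, Rap1gap and Col16a1 (r from 0.995 to 0.996) and Trpm7 to Slc25a46, Tceal3 and Ube3c (r from 0.974 to 0.990). Trpv4 was closest to Dmwd, Zfp580 and Mrpl36 (r from 0.982 to 0.998), and Trpv3 to Zer1, Stambp and Wdr31 (r from 0.960 to 0.972). Scn10a was the only gene among these 24 that also stood on the list of channel partners and nociceptor genes.

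Partners of the channels were present at varied levels. Of 20 genes listed for their part in TRP signalling or in nociceptors, 14 reached 1 CPM in every library. Over all genes in the table the share was 30.4%. All 16 that passed the filter varied beyond counting noise, beside 76.3% of all genes. Pirt, the membrane protein that binds Trpv1 and Trpm8, was at 21.2 ± 5.79 CPM per kb, more than Trpv1 itself at 8.99 ± 3.45 (SD, n = 6). Tmem100, the adaptor between Trpa1 and Trpv1, was at 3.27 ± 1.64 CPM per kb and was lowest in replicate 2, as were Pirt, Trpv1 and Trpa1. Akap5, a scaffold for kinases that act on Trpv1, had 0 to 4 counts per library, at most 0.199 CPM. Plcb3, the phospholipase downstream of many itch and pain receptors, was at 27.3 ± 1.40 CPM per kb (SD, n = 6). The bradykinin receptors, which sensitise Trpv1, were highest in replicate 5, as was Kcnk2, a heat-sensitive potassium channel. Fibroblast, macrophage, endothelial and mural markers were also highest in replicate 5. The part of those cells in these levels was not tested.

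Outside the thermosensitive set, 5 of 17 other TRP genes reached 1 CPM in every library, beside 30.4% of all genes in the table. Another 3, namely Trpv5, Trpv6 and Trpm5, had at most 3 counts in every library. Mcoln1, the lysosomal TRPML channel, was at 25.3 ± 1.42 and Pkd2, the polycystin of cilia and the endoplasmic reticulum, at 15.8 ± 2.41 CPM per kb (SD, n = 6), beside Trpm7 at 21.9 and Trpv1 at 8.99. Trpc1 at 4.34 ± 0.522, Trpm4 at 2.88 ± 0.430 and Trpc4 at 2.30 ± 0.387 CPM per kb (SD, n = 6) stood beside Trpv2 at 5.14 and Trpv4 at 1.74. These places depended on the length used. Per kb of coding sequence Pkd2 was at 58.3, Trpm7 at 30.8, Mcoln1 at 29.1, Trpc1 at 8.68 and Trpv2 at 7.86 CPM, so that Pkd2 moved above Trpm7, Mcoln1 below it and Trpc1 above Trpv2. The median level was 0.136 CPM per kb over these 17 genes, 2.04 over the 10 thermosensitive channels and 7.20 over the 14998 tested genes. Only the 14998 had all passed the low-count filter. The sets of 17 and 10 also hold genes that did not, so these medians are not of like sets. Of 8 other TRP genes tested, 7 varied beyond counting noise, beside 76.3% of all genes.

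**Figure D5:**
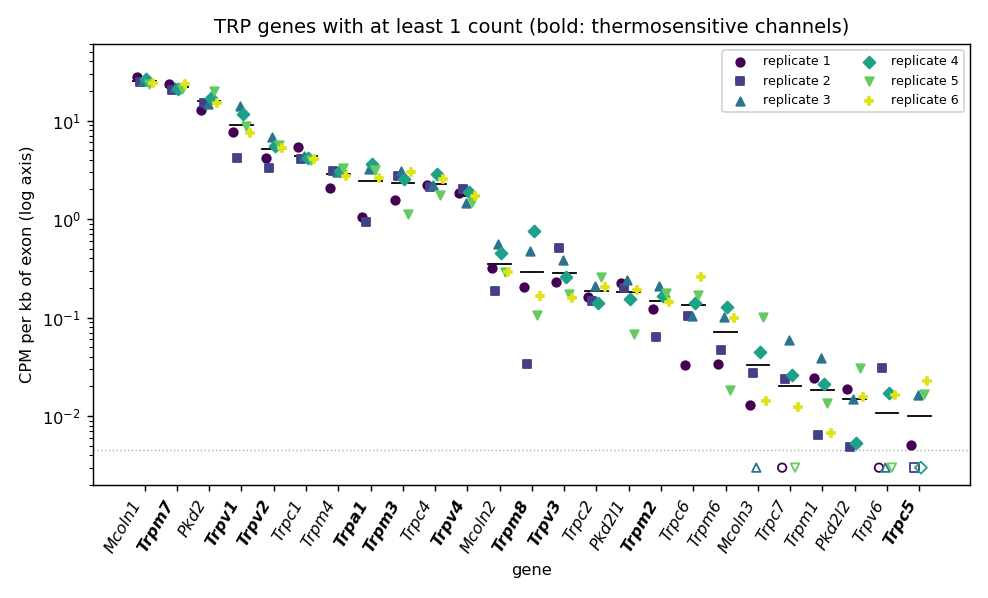
Levels per kb of exon, on a log axis, of the analysed TRP genes with at least 1 count, ordered by mean (bars), with 1 symbol per culture and open symbols for 0 counts; thermosensitive members are in bold. Per kb of exon, Mcoln1, Trpm7 and Pkd2 had the highest means, followed by Trpv1 and Trpv2; per kb of coding sequence Pkd2 came first and Trpm3 and Trpc1 stood above Trpv2.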

How the data were processed

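Per the labels' protocols, 500 ng of total RNA (integrity number 8.7 or above) gave stranded, poly-A selected libraries after 15 PCR cycles. The deposited table held estimated counts per gene, not scaled by the authors, and 13.4% to 14.7% of its values per library were not whole. Per the submitters' processing notes, bcl2fastq 2.20.0.422, cutadapt 2.5, STAR 2.7.2b and featureCounts 1.6.4 were used with GRCm38.p6; strand setting and handling of multi-matching reads are not given in the sources used here, so levels of genes with copies or overlaps are less certain. All 10 members' starts matched the RefSeq table.

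CPM used library totals. Counts were rounded for edgeR 4.0.16 (filterByExpr, TMM, quasi-likelihood fit with an intercept only) and DESeq2 1.42.0 in R 4.3.3; permutations used Python 3.11.15. A limit of 3 counts marked values near the floor. No fold range was computed for a gene with such a value, and relations to lists used only members above it in every library. Elsewhere, in means, pair tests, correlations between members and the search for extreme libraries, such counts were used as they stood. Intervals are exact (Clopper-Pearson) binomial ones.

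The members and lists were chosen with earlier results of these data known. Named genes were the members, the other TRP genes above 1 CPM in all libraries, partner genes, and the 3 genes with the highest r, on log2(CPM + 0.5), with each member of at least 10 counts in every library. One item is not reported here.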

Additional observations from a re-analysis of the deposited data

Results flagged for a closer look

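Of 35 genes examined, among them the 10 channels, 7 had a library whose gap to its nearest neighbour was a larger share of the range of the 6 cultures than Dixon's 95% critical value; at 1 in 20, chance would give 1.75. None of the 10 channels did. The figure of 1.75 is nominal, and the share of all tested genes beyond the critical value was not computed. Whether 7 of 35, or 0 of 10, is unusual in these libraries cannot therefore be told. Replicate 5 was the extreme library for 6 of the 7. It was highest for Bdkrb1 (5.40 CPM against 0 to 1.05 in the others, ratio 0.806), Kcnk2 (18.4 against 2.83 to 6.13, ratio 0.789), Plcg1 (41.5 against 20.4 to 26.4, ratio 0.715), Ano1 (3.01 against 0.610 to 1.34, ratio 0.696) and Bdkrb2 (16.5 against 1.35 to 6.88, ratio 0.636). For Akap5 it was lowest, at 0 CPM against 0.137 to 0.199 (ratio 0.685), a difference of 3 to 4 counts. Trpc1 was highest in replicate 1, at 26.1 CPM against 19.2 to 21.1 (ratio 0.718).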

How the results depend on the processing

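For the results that answer a comparison, 32 alternative counts were scored as the same and 1 as moved. Same here means a count near the main count, whichever members or pairs made it up. The count that moved was of members standing out from the trend of like genes, 2 of 8 by DESeq2's dispersion outliers against 0 by edgeR. Leaving out each replicate in turn gave 6 to 8 members beyond counting noise, 0 beyond the trend, and 6 to 7 members at 1 CPM or more in every library. The number of pairs that passed was 39 with pseudocounts of 0.01 and 1, TMM scaling and coding lengths, but the pairs differed for coding lengths: Trpv2 minus Trpm3 became -0.27 and Trpm8 minus Trpm2 became -0.0094, and Trpv1 over Trpm3 (0.37) and Trpa1 over Trpv3 (1.93) no longer passed, whereas Trpm3 over Trpa1, Trpm3 over Trpv4 and Trpv3 over Trpm2 did. With a pseudocount of 1, Trpa1 minus Trpm3 became 0.0026. Coding lengths, the sensory subtype relations and the order of pairs without single libraries were chosen after the data were seen. With 5 libraries the sign-flip test cannot go below 0.0625, so a test without single replicates could not pass; 39 to 40 pairs then kept 1 order in every library. Without replicates 1 and 5, 30 of 32 relations to marker lists kept their sign, and without the 2 libraries farthest from the median 25 did; a protein table for coding lengths was not used here. No paired comparison of conditions was possible because all samples form 1 group, and only genes were compared within libraries. Depth limits Trpc5, Trpm8, Trpm2 and Trpv3.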
